A study of Mus musculus with 18 samples.

Results

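Integrins are the receptors by which fibroblasts hold on to the extracellular matrix. Each receptor pairs an alpha with a beta subunit, the alpha subunit largely sets which matrix protein is bound, and the tail of the beta subunit recruits adaptors such as talin and kindlin that tie the receptor to actin. Itgb1 encodes the beta subunit shared by most alpha subunits, whereas Itgb3 and Itgb5 encode beta subunits that pair mainly with the alpha v subunit. The 10 subunit genes followed here (Itgb1, Itgb3, Itgb5, Itga5, Itgav, Itga3, Itga6, Itga1, Itga2 and Itga4) are those usually counted as integrins of fibroblasts. They were picked by name from the 55401 genes counted, with earlier results of these data known. CircRNAs with both ends inside these genes were added. There were 21 of them among 16171 listed in any circRNA library.

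The cells were NIH/3T3, a mouse embryonic fibroblast line, either WT or KO for Xpo4, the gene of the nuclear export receptor Exportin 4. CRISPR-Cas9 had made a short frame-shifting deletion in both copies of Xpo4, and the KO was 1 cell line with no other treatment. For mRNA, 3 WT and 3 KO libraries of rRNA-depleted RNA held between 16974062 and 22057323 counted fragments. For circRNA, RNase R, which digests linear RNA, was used on nuclear, cytoplasmic and total RNA, with 2 libraries of each genotype and fraction. Nuclear libraries held between 2189 and 4383 backsplice junction reads, and those of the other fractions between 50341 and 81941. Nothing says that replicates came from separate cultures, so p-values measure the spread between libraries, which may be technical.

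The genotype of each library was taken from its sample title, but the column heading inside all 6 mRNA files names the other genotype. If the headings were right, every mRNA direction given here would turn round. Xpo4 mRNA did not settle this, since a short deletion need not change a count over the whole gene. Its level was 2.97 ± 0.0979 FPKM (fragments scaled to exon length and to the library total, SD, n = 3) in WT against 3.37 ± 0.651 FPKM (SD, n = 3) in KO. That difference was not past the threshold (log2 fold change 0.18, edgeR adjusted p = 0.193) and the ranges overlapped. KO replicate 2 lay farthest from the other libraries of its genotype, and the 8 integrin calls below were also made without it. The cells carried all 10 fibroblast markers looked for (Col1a1, Col1a2, Vim, Thy1 and others), which summed to between 1890 and 1912 FPKM in WT and between 2024 and 2173 FPKM in KO. The summed markers reached at most 0.578 FPKM for 7 epithelial genes, 0.244 FPKM for 6 endothelial genes and 0.596 FPKM for 6 muscle genes. The 7 leukocyte genes summed to between 4.42 and 6.37 FPKM in WT and between 3.27 and 4.11 FPKM in KO, most of it from Cd68, and Cd3e was at 0 in every library. They did not move together, since Cd68 (log2 fold change -0.71) and Ptprc (-1.78) were lower and Lyz2 (2.64) was higher in KO (edgeR adjusted p = 0.00854, 1.03e-05 and 0.00127). Fewer cells of a kind and less RNA per cell cannot be told apart in such bulk samples.

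The circRNAs joined exons inside the coding part of the integrin genes. In all 21, both ends lay on annotated exon edges with AG before and GT after the circle. None held the first or the last exon, which lack a splice site at their outer end. Shares over all listed circRNAs are not given, so these features are not read as particular to integrin circles. By the annotated exons between their ends, the circles spanned 2 to 7 exons and 300 to 1061 nt of spliced sequence, with a median of 483 nt. Only the junctions were read, so the exons named for a circle are those of the annotation and its inner content was not observed. Of the 21, 12 started at exon 2 or 3 and 12 shared an end with another circle of the same gene. The backsplice junctions of the circles on which the results turn are printed here because a single read across such a junction is the evidence for the circle. In each, 20 bases of the end of the last exon in lower case are followed by 20 bases of the start of the first exon in capitals, 5′ to 3′ on the strand of the gene, from RefSeq's GRCm38.p6.
circItgb1 exons 2 to 4 (chr8:128705413-128710475, plus strand): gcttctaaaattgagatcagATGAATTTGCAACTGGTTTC
circItgb1 exons 3 to 6 (chr8:128707074-128714165, plus strand): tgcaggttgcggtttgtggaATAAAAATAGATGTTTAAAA
circItgb1 exons 4 to 9 (chr8:128710253-128717674, plus strand): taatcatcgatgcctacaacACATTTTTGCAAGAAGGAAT
circItga1 exons 3 to 8 (chr13:115012160-115035385, minus strand): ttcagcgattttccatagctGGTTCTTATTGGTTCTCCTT
circItga1 exons 2 to 8 (chr13:115012160-115049403, minus strand): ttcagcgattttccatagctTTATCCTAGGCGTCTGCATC
circItgav exons 17 to 21 (chr2:83785333-83792643, plus strand): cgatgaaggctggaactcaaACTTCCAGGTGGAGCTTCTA
circItgav exons 3 to 7 (chr2:83747853-83765893, plus strand): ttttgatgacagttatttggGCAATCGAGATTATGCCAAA
circItga5 exons 15 to 17 (chr15:103352015-103352585, minus strand): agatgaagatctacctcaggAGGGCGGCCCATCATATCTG
circItga3 exons 15 to 17 (chr11:95055857-95056851, minus strand): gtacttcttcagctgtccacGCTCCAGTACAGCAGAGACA
circItgb5 exons 6 to 8 (chr16:33899241-33902883, plus strand): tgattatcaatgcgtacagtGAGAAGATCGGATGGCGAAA
The circItga1 pair has the same bases before the junction and differs after it, as the circles end at the same exon 8. The capitals of circItgb1 exons 2 to 4 open with the annotated ATG start codon of Itgb1, and it was the only one of the 21 circles to start there.

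Whether the KO cells differed from WT in integrin mRNA was asked of the 6 mRNA libraries. The KO cells had more mRNA of Itgb1, Itgb3, Itgav, Itga3, Itga6 and Itga1 and less of Itga5 and Itgb5. The increases ran from 1.31-fold for Itgb1 to 1.83-fold for Itga1, and the decreases were 1.43-fold for Itga5 and 1.58-fold for Itgb5. Of the 10 genes, 8 had enough reads to be tested, and all 8 passed an adjusted p threshold of 0.05 (by edgeR, quasi-likelihood, Benjamini-Hochberg over 14688 genes), 6 higher and 2 lower. The background was high, since 48.7% of all genes tested passed (25.1% higher and 23.6% lower), and 53.0% of those with a mean count of at least 50. The median absolute log2 fold change was 0.54 over the 8 subunits and 0.28 over all genes tested. The FPKM ranges of the genotypes did not overlap for any of the 8 subunits, as was also seen for 57.8% of all genes tested.

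**Figure D1:**
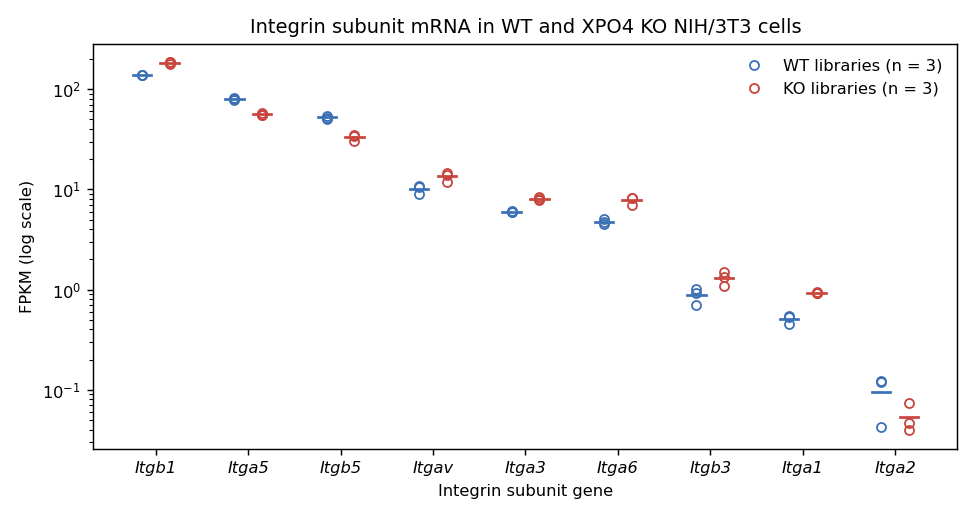
FPKM (vertical log axis) of 9 integrin subunit genes in each WT (blue) and KO (red) mRNA library, with circles for single libraries (n = 3 per genotype) and bars for means. Itga4 is left out because it was at 0 in 2 libraries. The KO circles lie above the WT circles for 6 genes, below them for Itga5 and Itgb5, and overlap them for Itga2.

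Among the beta subunits, Itgb1 (ENSMUSG00000025809.15, chr8:128685654-128733200) was the most abundant subunit mRNA in both genotypes. It was at 138, 140 and 137 FPKM in WT and at 185, 176 and 185 FPKM in KO. Every KO library was above every WT library, with a log2 fold change of 0.39 ± 0.049 (SE, edgeR adjusted p = 2.05e-05). Itgb5 (ENSMUSG00000022817.15, chr16:33829665-33949338), whose product joins the alpha v subunit in a vitronectin receptor, moved the other way. It was at 54.5, 50.8 and 51.5 FPKM in WT and at 34.4, 34.5 and 30.4 FPKM in KO, so that every KO library was lower (log2 fold change -0.66 ± 0.063, SE, edgeR adjusted p = 1.92e-06). Itgb3 (ENSMUSG00000020689.4, chr11:104608000-104670476), also a beta partner of alpha v and a subunit best known from platelets, was present at a low level. Its counts were 82, 117 and 119 fragments in WT and 156, 115 and 134 in KO, or 0.699, 1.02 and 0.914 against 1.48, 1.09 and 1.34 FPKM. The groups stood apart in FPKM by a small margin only. The log2 fold change of Itgb3 was 0.57 ± 0.170 (SE, edgeR adjusted p = 0.0138). Without WT replicate 1 it was not past the threshold (log2 fold change 0.43, edgeR adjusted p = 0.0604), nor without KO replicate 1 (0.47, edgeR adjusted p = 0.0631).

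Of the alpha subunits that bind the RGD motif of matrix proteins, Itga5 (ENSMUSG00000000555.8, chr15:103344286-103366763) forms the main fibronectin receptor with the beta 1 subunit. Itga5 mRNA was at 82.1, 77.9 and 79.5 FPKM in WT and at 57.3, 54.9 and 55.3 FPKM in KO. All KO libraries were below all WT libraries (log2 fold change -0.52 ± 0.051, SE, edgeR adjusted p = 2.47e-06). Itgav (ENSMUSG00000027087.11, chr2:83724397-83806916) encodes the alpha v subunit, which pairs with several beta subunits. It was at 10.7, 10.6 and 9.05 FPKM in WT and at 13.8, 11.9 and 14.6 FPKM in KO. The KO libraries were all higher, with KO replicate 2 nearest to WT (log2 fold change 0.41 ± 0.081, SE, edgeR adjusted p = 0.00101). An uncharacterised gene, Gm13684, overlaps 5.90% of the exon bases of Itgav, and the counts did not use strand.

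The laminin receptor subunits Itga3 and Itga6 were both higher in KO. Itga3 (ENSMUSG00000001507.16, chr11:95044474-95076801) was at 6.15, 5.93 and 5.95 FPKM in WT and at 8.29, 8.09 and 7.79 FPKM in KO (log2 fold change 0.42 ± 0.064, SE, edgeR adjusted p = 1.12e-04). The spread within each genotype was narrow beside the step between them. Itga6 (ENSMUSG00000027111.16, chr2:71745616-71858416) was at 5.03, 4.69 and 4.50 FPKM in WT and at 8.26, 6.99 and 8.20 FPKM in KO. Its groups did not overlap, and KO replicate 2 was again the lowest of the KO libraries (log2 fold change 0.72 ± 0.074, SE, edgeR adjusted p = 3.48e-06).

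The collagen receptor subunit Itga1 (ENSMUSG00000042284.10, chr13:114953096-115101964) had the largest log2 fold change of the 8 subunits tested, at a low level. It had 198, 196 and 186 fragments in WT and 316, 310 and 289 in KO, which is 0.535, 0.540 and 0.453 FPKM against 0.953, 0.930 and 0.915 FPKM. The KO libraries lay close together and well above WT (log2 fold change 0.87 ± 0.103, SE, edgeR adjusted p = 1.28e-05). Another gene model, Gm49395, overlaps 3.68% of its exon bases. A change of at least that size in either direction was seen for 12.7% of all genes tested. The other collagen receptor subunit of the set, Itga2 (ENSMUSG00000015533.9, chr13:114833081-114932100), had 6, 17 and 19 fragments in WT and 5, 6 and 9 in KO. The genotypes overlapped, and too few reads were present for the test. Itga4 (ENSMUSG00000027009.18, chr2:79255426-79333123), the VCAM-1 and fibronectin receptor subunit known mainly from leukocytes, had 1, 0 and 0 fragments in WT and 4, 1 and 3 in KO, which was also too few for a test.

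**Figure D2:**
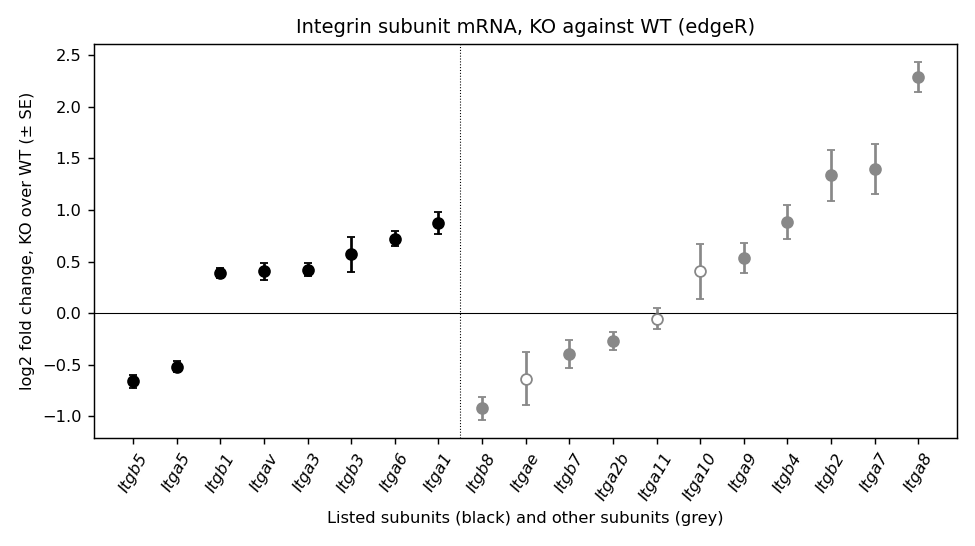
Log2 fold change of KO over WT with its standard error (vertical axis, edgeR on 3 libraries per genotype) for the 8 tested integrin genes of the set (black) and 11 other subunits (grey), where filled points had an adjusted p under 0.05. Itgb5 and Itga5 lie below 0 and the other 6 black points lie between 0.39 and 0.87.

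FPKM divides by the length of all annotated exons of a gene, used or not, so levels of different subunits can be compared only roughly. By mean fragments in WT, not divided by length, Itga6 (886) lay above Itga3 (703) and Itga1 (193) above Itgb3 (106). By FPKM the WT order ran from Itgb1 through Itga5, Itgb5, Itgav, Itga3, Itga6, Itgb3, Itga1 and Itga2 to Itga4. The order of the FPKM means was the same in KO. The ranges of neighbours in this order were apart in every case but Itga3 and Itga6 in KO, whose means were 8.06 ± 0.254 and 7.82 ± 0.717 FPKM (SD, n = 3). The steps between the levels changed all the same. Itga5 made up 78.8% ± 0.922 (SD, n = 3) of the summed FPKM of the 7 alpha subunits in WT and 64.8% ± 1.32 (SD, n = 3) in KO. The shares of Itgav (10.0% to 15.6%), Itga3 (5.93% to 9.36%), Itga6 (4.67% to 9.06%) and Itga1 (0.502% to 1.08%) were each higher in all 3 KO libraries than in any WT library. Within the 3 beta subunits, Itgb1 held 72.3% ± 0.784 (SD, n = 3) for WT against 84.1% ± 1.11 (SD, n = 3) for KO, and Itgb5 held 27.3% ± 0.870 and 15.3% ± 1.15. Shares of one sum depend on each other, so a lower share of the leading gene raises the others.

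**Figure D3:**
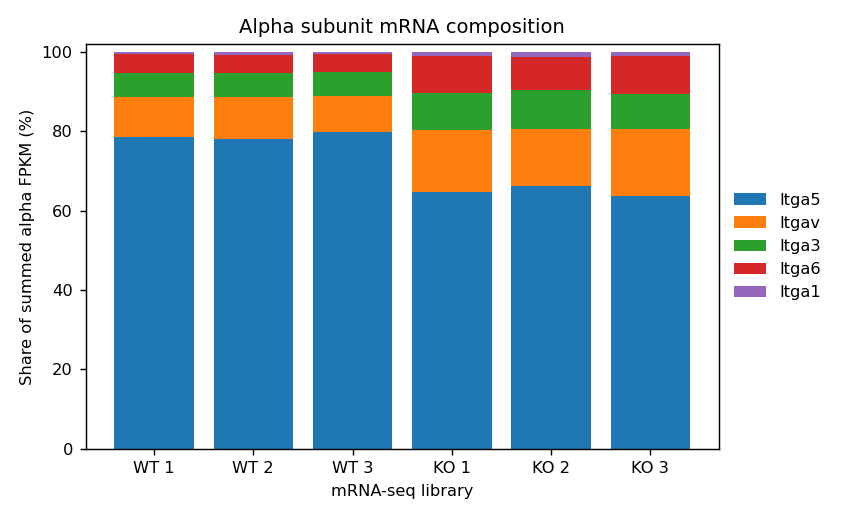
Share of the summed FPKM of the 7 alpha subunits (percent, stacked bars from 0) in each of the 6 mRNA libraries; Itga2 and Itga4 are too small to draw. Itga5 takes between 78.1% and 79.8% in the WT bars and between 63.7% and 66.3% in the KO bars.

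The sum of the alpha subunits was 101 ± 2.83 FPKM (SD, n = 3) for WT against 86.2 ± 2.97 FPKM (SD, n = 3) for KO. That of the beta subunits was 191 ± 1.86 and 216 ± 4.43 FPKM. Set against Itgb1, the common partner, the summed alpha FPKM was 0.758, 0.713 and 0.726 per Itgb1 FPKM in WT and 0.480, 0.471 and 0.470 in KO. The ratio is free of the scaling of libraries. It was lower in all 3 KO libraries than in any WT library, by a log2 difference of -0.63 (exact permutation, two-sided, p = 0.10, the smallest that 3 against 3 libraries allow). Itga5, 78.8% of the alpha sum in WT, was the only tested alpha subunit of the set that was lower in KO. Itgb1, the divisor, was itself higher in KO (138 FPKM in WT and 182 FPKM in KO on average, log2 fold change 0.39). The ratio thus reflects both the higher Itgb1 and the lower Itga5, and does not describe alpha subunits in general. Subunits outside the set, such as Itga2b and Itga11 (5.41 and 4.84 FPKM in WT), are not in the sum.

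The genes with a pattern most like that of Itga1 over the 6 libraries, by Pearson's r of log2 CPM, were Oxr1 (r = 0.9995), Ogfrl1 (r = 0.9994) and Fzd8 (r = 0.9992). These are descriptions over 6 points that share 2 genotypes, and 1299 of the 11692 genes compared had an r over 0.95.

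Other integrin subunits, the adaptors and the matrix proteins that integrins bind were read from the same fit. These lists, too, were chosen with earlier results of these data known. Of 16 other subunits, 11 were tested, of which 5 were higher and 3 lower in KO (72.7% past the threshold against 48.7% of all genes tested). The lower calls depended on the setting, with 6 higher and 1 lower both by DESeq2 and without WT replicate 1. Their median log2 fold change was 0.41, as it was for the 8 subunits of the set, against 0.00 over all genes tested. The largest changes were in Itga8 (log2 fold change 2.29, from 0.454 to 2.24 FPKM), a receptor subunit for nephronectin, the laminin receptor subunit Itga7 (1.40, from 0.183 to 0.487 FPKM), the leukocyte subunit Itgb2 (1.33, from 0.559 to 1.40 FPKM) and Itgb8 (-0.92, from 1.46 to 0.769 FPKM), a partner of alpha v. Even after these changes, each stayed at a lower FPKM than Itga6. Itga11, a collagen receptor subunit outside the set, was at 4.84 FPKM in WT and 4.68 FPKM in KO, above Itga1 in both. It was not past the threshold (log2 fold change -0.052, edgeR adjusted p = 0.705).

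Of 29 adaptor genes, 28 were tested, and 16 were higher and 2 lower in KO (64.3% past the threshold against 48.7% of all genes tested), with a median log2 fold change of 0.23. Without WT replicate 1 there were 15 higher and 1 lower. Among those whose mean count reached 50 in either genotype, the largest changes were in Tns2 (log2 fold change 0.85), a tensin that binds beta tails and actin, Fermt2 (0.67), a kindlin that activates integrins, Nedd9 (0.65), a docking protein of focal adhesions, and Lims1 (0.63), the partner of integrin-linked kinase known as PINCH1. Ilk, the gene of that kinase, had a larger log2 fold change of 1.60 (edgeR adjusted p = 0.00322) on 11, 6 and 14 fragments in WT and 20, 26 and 35 in KO, but 89.7% of its exon bases are shared with other genes. Ptk2, which encodes focal adhesion kinase, was at 12.4 FPKM in WT and 12.3 FPKM in KO and was not past the threshold (log2 fold change -0.0075, edgeR adjusted p = 0.924). Vcl, which encodes vinculin, was at 18.7 and 19.4 FPKM and was not past it either (edgeR adjusted p = 0.722).

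Of 30 matrix ligands, 27 were tested, and 14 were higher and 9 lower (85.2% past the threshold against 48.7% of all genes tested). Their median log2 fold change was 0.14. Without WT replicate 2 there were 12 higher and 6 lower, and likewise without WT replicate 3. Over all genes, the number past the threshold then fell from 7151 to 6143 and 6263. Ccn2, a matricellular ligand of integrins, went from 9.57 to 65.9 FPKM (log2 fold change 2.78), although 23.2% of its exon bases are shared with another gene model. Nid1, a basement membrane linker of laminin and collagen IV, went from 318 to 105 FPKM (log2 fold change -1.60). Ccn1 (1.57) and Spp1 (1.43, osteopontin) were higher, and both are ligands of alpha v integrins. Spp1 shares 18.8% of its exon bases with another gene model. Fn1, which encodes fibronectin, the ligand of the receptor made with Itga5, was lower by a small step (log2 fold change -0.21 ± 0.077, SE, edgeR adjusted p = 0.0362), from 987 to 854 FPKM.

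CircRNAs of the integrin genes were then read from the lists of the 3 fractions, to see whether the circles moved as the mRNAs did. Junction reads were found for 8 of the 10 genes, and Itga2 and Itga4 had none. The cytoplasmic lists held 14 circles of 7 genes and the total RNA lists 9 circles of 4 genes. No integrin circle was among the 1166 circRNAs of the nuclear lists, which rest on few reads. No circRNA with fewer than 3 reads over the 4 nuclear libraries is listed, nor one with fewer than 5 in the cytoplasm or 4 in total RNA, so an unlisted circle may still have been read. Only 2 circles were listed in both the cytoplasm and total RNA, which is 14.3% of the cytoplasmic and 22.2% of the total integrin circles. Over all circRNAs these shares were 49.8% and 44.9%. The reads of the 2 shared circles also differed in opposite directions in the fractions. The fraction of each list was taken from the sample titles, and whether the lists carry the right fraction was not tested, so the fraction of every circle value given here rests on those titles.

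**Figure D4:**
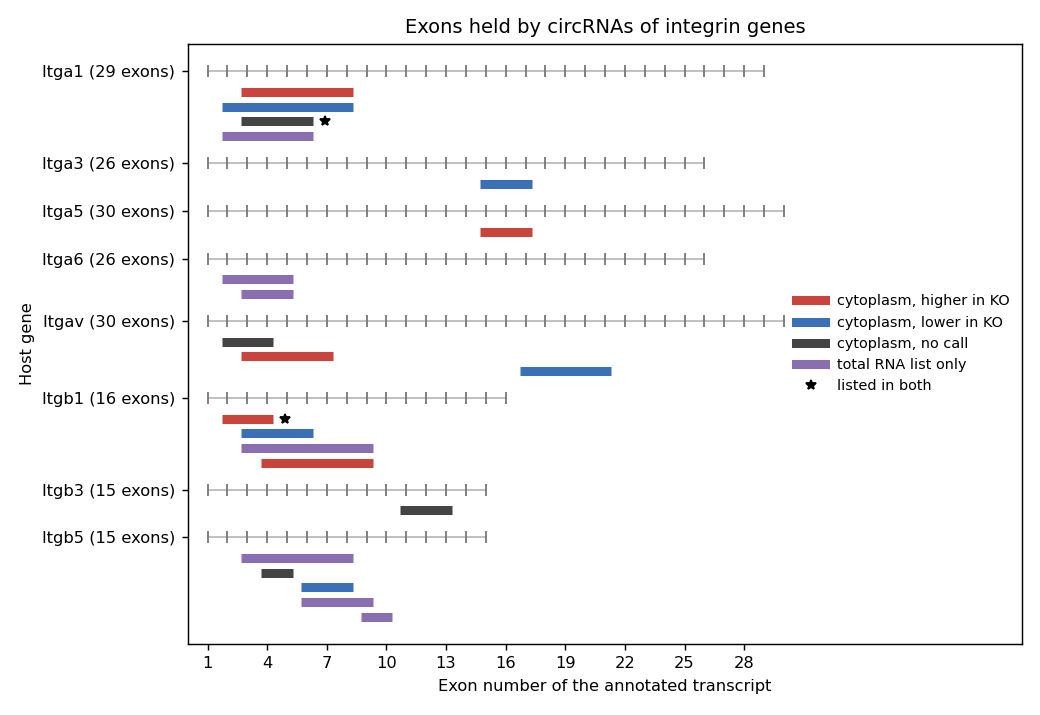
Annotated exons between the ends of the 21 integrin circRNAs (bars) along the exon numbers of each host transcript (horizontal axis, ticks for exons). Colours give the cytoplasmic test of KO against WT. Violet marks circles listed in total RNA alone and stars mark the 2 listed in both. Red and blue bars lie side by side within Itga1, Itgav and Itgb1.

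In the cytoplasm, 13 of the 14 circles had the 10 summed reads needed for the test, and 10 passed the threshold, 5 higher and 5 lower in KO (by edgeR, quasi-likelihood, Benjamini-Hochberg over 8917 circRNAs). The background share was 53.5%. The reads of the genotypes as deposited did not overlap for 12 of the 13 circles tested, as for 82.4% of all cytoplasmic circRNAs tested. These calls rest on few reads, and DESeq2 made 1 of the 10, that of circItgb1 exons 2 to 4 (DESeq2 adjusted p = 0.0483). Without any scaling 5 of them were made (Itgb1 exons 2 to 4 and 3 to 6, Itga1 exons 3 to 8, Itga3 exons 15 to 17 and Itgav exons 17 to 21), and between 4 and 9 with single libraries left out. Ratios of reads per junction read are given below with exact 95% intervals, which cover counting error only.

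The 3 cytoplasmic circles of Itgb1 did not move together. Exons 2 to 4 had 2 and 2 WT reads against 15 and 12 KO reads, 9.46-fold more (interval 3.30 to 37.2, edgeR adjusted p = 2.76e-04). Exons 4 to 9 had 2 and 1 WT reads against 9 and 6 KO reads, 7.01-fold more (interval 1.98 to 37.8, edgeR adjusted p = 0.00201). Exons 3 to 6 had 16 and 10 WT reads against 1 and 1 KO reads, 9.27-fold fewer (interval 2.32 to 80.6, edgeR adjusted p = 0.00146). All 3 had non-overlapping reads, while Itgb1 mRNA was 1.31-fold higher in KO. Summed over the gene, the circles had 20 and 13 WT reads against 25 and 19 KO reads.

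Itga1 gave 3 circles in the cytoplasm, of which 2 end at exon 8. The one with exons 3 to 8 had 0 and 1 WT reads against 8 and 9 KO reads, 23.8-fold more with a wide interval (3.73 to 996, edgeR adjusted p = 3.25e-04). The one that also holds exon 2 had 5 and 10 WT reads against 0 and 2 KO reads, 5.35-fold fewer (interval 1.24 to 48.2, edgeR adjusted p = 0.0228). Circles that differ by 1 annotated exon thus had opposite calls. The most abundant circle of the gene, exons 3 to 6, had 4 and 10 WT reads against 3 and 2 KO reads and was not past the threshold (edgeR adjusted p = 0.248).

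Itgav gave 3 cytoplasmic circles as well. Exons 17 to 21 had 11 and 15 WT reads against 1 and 2 KO reads, 6.18-fold fewer (interval 1.89 to 31.9, edgeR adjusted p = 0.00205). Exons 3 to 7 had 0 and 2 WT reads against 5 and 3 KO reads, 5.61-fold more (interval 1.12 to 54.2, edgeR adjusted p = 0.0250), a call that was not made without scaling (edgeR adjusted p = 0.209). Exons 2 to 4 had 3 and 5 WT reads against 3 and 2 KO reads, with overlap and no call (edgeR adjusted p = 0.896). The circles with calls lie in separate parts of the transcript, while Itgav mRNA was 1.32-fold higher in KO.

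Itga3 and Itga5 each gave 1 circle, in both cases of exons 15 to 17, and in both the circle went against the mRNA. The Itga3 circle had 15 and 16 WT reads against 1 and 1 KO reads, 11.1-fold fewer (interval 2.81 to 95.3, edgeR adjusted p = 5.37e-04), while Itga3 mRNA was 1.34-fold higher. The Itga5 circle had 2 and 1 WT reads against 9 and 6 KO reads, 7.01-fold more (interval 1.98 to 37.8, edgeR adjusted p = 0.00201), while Itga5 mRNA was 1.43-fold lower. Whether the circle and the mRNA of a gene changed differently was not tested, as they come from different libraries.

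The Itgb5 circle of exons 6 to 8 had 10 and 10 WT reads against 2 and 0 KO reads, 7.13-fold fewer (interval 1.73 to 62.9, edgeR adjusted p = 0.00580), the same direction as Itgb5 mRNA. A second Itgb5 circle, exons 4 to 5, had 1 and 1 WT reads against 2 and 5 KO reads, too few to test. The circle of Itgb3, exons 11 to 13, had the most reads of any integrin circle in the cytoplasm, 22 and 15 in WT against 12 and 5 in KO, although Itgb3 mRNA was among the lowest. As a share of all junction reads, the genotypes overlapped for this circle (0.0283% and 0.0183% in WT against 0.0237% and 0.00789% in KO). The circle was not past the threshold (edgeR adjusted p = 0.427).

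**Figure D5:**
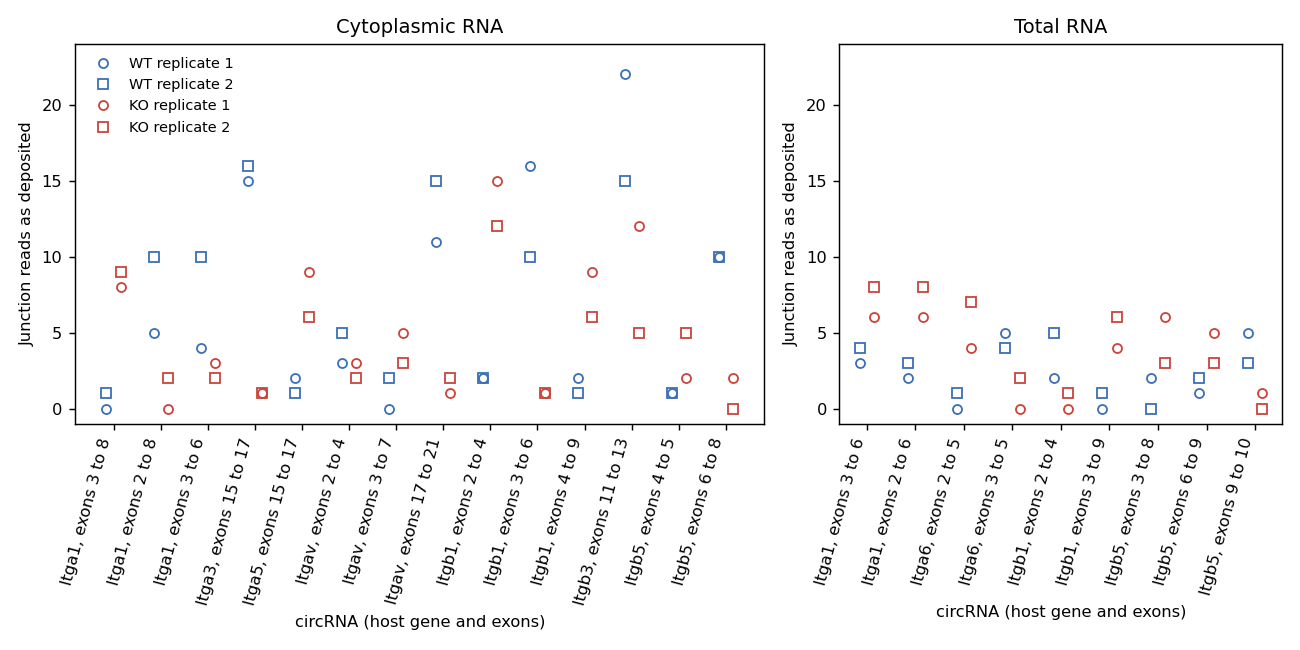
Junction reads as deposited (vertical axis) of each integrin circRNA in the cytoplasmic (left) and total RNA (right) libraries, WT in blue and KO in red, circles for replicate 1 and squares for replicate 2. In the cytoplasm the red points lie above the blue for 6 circles and below for 7.

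In total RNA, 7 of the 9 circles were tested and none passed the threshold, as none of all 8903 circRNAs tested did (background 0.0%). At an unadjusted p under 0.05 there were 5 of the 7, 4 of them higher in KO, against 38.2% of all circRNAs tested. DESeq2 gave an adjusted p for 2 of the 7 and called neither. The Itga6 circle of exons 2 to 5 had 0 and 1 WT reads against 4 and 7 KO reads (edgeR adjusted p = 0.0580), and the circle of exons 3 to 5 had 5 and 4 WT reads against 0 and 2 KO reads (edgeR adjusted p = 0.121). These, too, end at the same exon and lay in opposite directions. The Itgb1 circle of exons 3 to 9 had 0 and 1 WT reads against 4 and 6 KO reads (edgeR adjusted p = 0.0580). With each library scaled by its total of junction reads alone, 2 circles passed, namely Itga6 exons 2 to 5 and Itgb1 exons 3 to 9.

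The other total RNA circles were those of Itga1 and Itgb5. Itga1 exons 2 to 6 had 2 and 3 WT reads against 6 and 8 KO reads (edgeR adjusted p = 0.103). Itgb5 exons 3 to 8 had 2 and 0 WT reads against 6 and 3 KO reads (edgeR adjusted p = 0.121), and exons 6 to 9 had 1 and 2 against 5 and 3 (edgeR adjusted p = 0.218). The Itgb5 circle of exons 9 to 10, with 5 and 3 WT reads against 1 and 0 KO reads, had too few reads to test. No overlap between genotypes was seen for the 7 circles tested, as for 65.4% of all circRNAs tested in total RNA.

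Summed over the set, 0.120% and 0.121% of the WT cytoplasmic junction reads came from integrin circles, against 0.140% and 0.0884% of the KO reads. These values overlapped and differed by -0.0058 percentage points (exact permutation, two-sided, p = 1). In total RNA they made up 0.0346% and 0.0417% in WT and 0.0550% and 0.0755% in KO. Both KO libraries were higher there, by 0.0271 percentage points (exact permutation, two-sided, p = 0.333, the smallest that 2 against 2 libraries allow). The cytoplasmic share rested on 93 and 99 reads in WT and on 71 and 56 in KO, and the share in total RNA on 20 and 23 against 32 and 38.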

How the data were processed

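For mRNA, the authors deposited the count of fragments per gene from featureCounts (version 2.0.0, per the file headers on exons, by gene and without a strand option) after HISAT2 on mm10. For circRNA, after cutadapt and find_circ, they deposited junction read counts with positions on the same build. Both were analysed as counts. FPKM was computed here from the counts, the exon length in the files and the total of counted fragments.

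Genotypes were compared by the quasi-likelihood test of edgeR (4.0.16, under R 4.3.3) after TMM scaling, fitted on the whole table, and p-values were adjusted by Benjamini and Hochberg's method and called under 0.05. The SE of a log2 fold change was worked back from the test, as its absolute value divided by the square root of the F statistic. mRNA used edgeR's filter on low counts. CircRNAs needed 10 reads summed over the 4 libraries of a fraction, with absent ones as 0. DESeq2 (version 1.42.0), other scalings, no filter, each library left out and a replicate block were the alternatives. Single values were compared by exact permutation tests. In counts simulated at these depths, 200 genes or circRNAs were changed per run, all above a read floor (for genes a mean count of at least 50). The spread between replicates was set beforehand and not taken from these data. With 14642 genes tested, edgeR recovered 81% of the 1.5-fold changes. It recovered 47.5% of the 4-fold changes with 8341 cytoplasmic and 42.5% with 8104 total circRNAs tested. Power over all features tested in the real data is not given by these shares.

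Gene positions came from GENCODE vM21 and circle exons and junctions from GRCm38.p6. The position printed for Itga6 is that of gene version ENSMUSG00000027111.15, while its counts were for version ENSMUSG00000027111.16. Of the mRNA rows, 55141 of 55401 IDs matched a symbol. The integrins and the other lists were chosen with earlier results of these data known. Named besides the set were the 4 genes of each list with the largest log2 fold change among those past the threshold whose mean count reached 50 in either genotype. Fn1, Ptk2, Vcl, Itga11 and Itga2b were named after their values were seen. So were the circles beyond the most abundant one of each gene and the 5 with the smallest p per fraction. No molecular identifiers are mentioned, so intervals cover counting error only. Replicates differed by more than sampling noise, with a chi-square per feature between 1.09 and 11.3.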

Additional observations from a re-analysis of the deposited data

Results flagged for a closer look

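The 2 circles listed in both fractions stood out because the genotypes differed in opposite directions in them. The Itga1 circle of exons 3 to 6 had 4 and 10 cytoplasmic reads in WT against 3 and 2 in KO, but 3 and 4 total RNA reads in WT against 6 and 8 in KO. The Itgb1 circle of exons 2 to 4 had 2 and 2 cytoplasmic reads in WT against 15 and 12 in KO, but 2 and 5 total RNA reads in WT against 0 and 1 in KO. By reads as deposited, the KO libraries lay on one side of both WT libraries in the cytoplasm and on the other side in total RNA. As a share of all junction reads, the genotypes overlapped for the Itga1 circle in the cytoplasm (0.00514% and 0.0122% in WT against 0.00593% and 0.00316% in KO), where it was not called (edgeR adjusted p = 0.248). The difference between fractions was not tested. Whether the lists carry the right fraction was not tested either.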

How the results depend on the processing

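The 8 integrin mRNAs kept their direction under every alternative run, and between 7 and 8 were called, the exception being Itgb3 without WT replicate 1 or KO replicate 1. The number of cytoplasmic integrin circles called was 10. It was 5 without scaling, 1 with DESeq2 and 11 with no filter on low counts. With each library left out it was between 4 and 9 (6 without WT replicate 2, 4 without KO replicate 1 and 5 without KO replicate 2). With the replicate block it was 9, and Itgav exons 3 to 7 had an edgeR adjusted p of 0.0697. In total RNA 0 were called, but 2 with scaling by the junction read total alone and 2 with the replicate block. The cytoplasmic share of integrin circles changed sign without KO replicate 2, to 0.0201 percentage points, and lay between -0.0317 and 0.0201 with each library left out. The causes were not tested. The deviations of libraries with the same replicate number from their group means had correlations near 0 (0.0615, 0.0359 and -0.0889 for mRNA, -0.0519 in the cytoplasm and 0.0400 in total RNA). No deviation shared by replicate number was thus seen, which cannot show whether libraries of the same number were prepared as pairs. With the replicate block, 8 integrin mRNAs were called. Low read numbers limit every circle result.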
